A study of Mus musculus with 2 samples.

Results

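Osteoblast differentiation and mineralization genes were followed in LM8 cells, an established line from a mouse osteosarcoma known for spreading to the lung. The list held 10 genes with known roles: the transcription factor genes Runx2, Sp7 and Dlx5, the enzyme and protease genes Alpl, Enpp1 and Phex, and the bone matrix genes Ibsp, Spp1, Dmp1 and Mgp. They were chosen with earlier results of these data known. They were 10 of 12393 genes named on the array. RNA was hybridised to 2 Affymetrix mouse arrays, 1 from a clone stably transfected with a full-length cDNA of human PHD4 (hPHD4) in the vector pcDNA3.1 and 1 from a control clone carrying that vector empty. Both clones were kept under 0.5 mg/ml of the antibiotic G418, and 5 µg of total RNA entered each labelling reaction. PHD4 is a prolyl hydroxylase of the endoplasmic reticulum membrane, related to the enzymes that mark HIF alpha subunits for degradation. Each group was thus a single clone read on a single array, so nothing was replicated and nothing could be tested, and differences between clones cannot be told apart from differences caused by the transgene.

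Osteoblasts arise from mesenchymal precursors under the control of Runx2, which acts upstream of Sp7 (osterix), while Dlx5 is a homeodomain factor that acts early in the same programme and downstream of bone morphogenetic proteins (BMPs). Maturing osteoblasts display tissue-nonspecific alkaline phosphatase, encoded by Alpl, which removes pyrophosphate, an inhibitor of mineral growth, and they secrete acidic glycoproteins such as bone sialoprotein, osteopontin and dentin matrix protein that bind mineral and integrins. Osteosarcomas make bone-like matrix and retain parts of this programme to varying degrees.

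Of the 10 genes, 5 were measured in both clones. Ibsp, encoding bone sialoprotein, was 2.13-fold higher in the hPHD4 clone, and Mgp, encoding the mineralization inhibitor matrix Gla protein, was 4.79-fold lower. Sp7, Dlx5 and Alpl were bright in both clones and higher in that expressing hPHD4 by between 1.15-fold and 1.23-fold. Dmp1 and Phex lay in both clones under the signal floor, a percentile of each array given below. Runx2, Spp1 and Enpp1 had 0 probe sets named for them alone in the annotation used, so no value is given for them.

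Values are MAS5 signals on the log2 scale unless called linear. The floor was the 40th percentile of each array's probe sets, at 6.34 (linear 81.1) on the hPHD4 array and 6.08 (linear 67.8) on that of the control, and a gene counted as measured when at least 1 of its probe sets lay above both. Measured genes numbered 7452, with a median log2 difference, hPHD4 clone minus control clone, of 0.03. In place of a replicate error, each difference is set beside the SD between probe sets of the same gene, 0.40 for dim, 0.37 for middling and 0.28 for bright genes, 3 classes of equal size by mean signal. That SD holds no variation between cultures or clones, nor between arrays. The 7 genes with a probe set had 9 in all, of which 6 were above the floor on both arrays and 3 under it on both. In the hPHD4 clone 8 of these 9 probe sets were higher and 1 was lower, where 56.4% of all probe sets with 1 gene symbol were higher. The 3 under the floor were all among the 8, and 63.2% of all such probe sets under the floor on both arrays were higher.

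**Figure D1:**
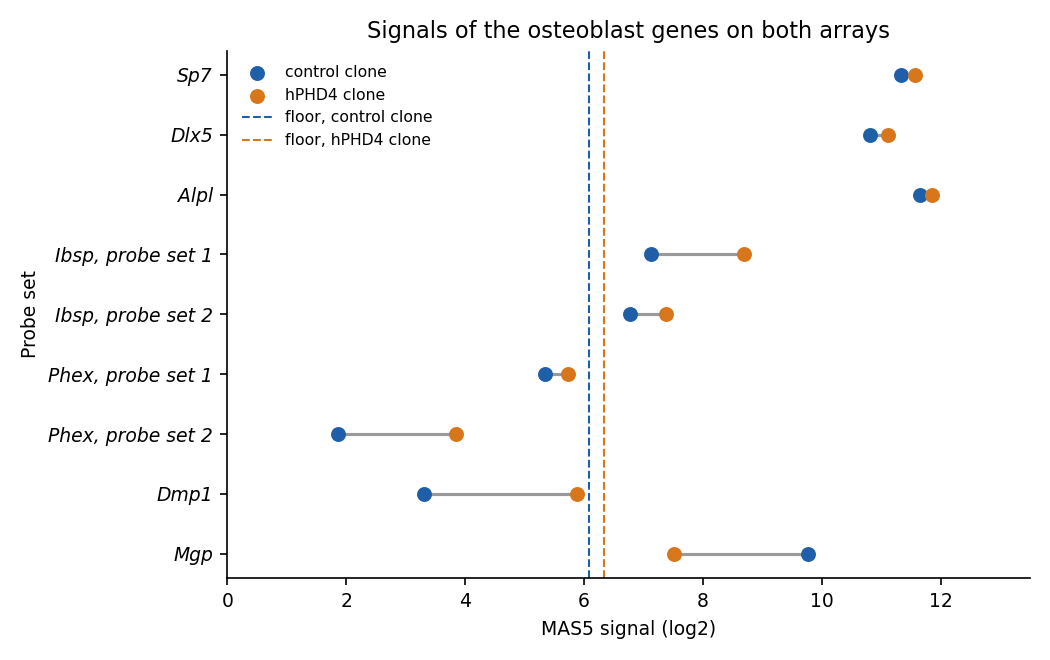
MAS5 signal (log2) of the 9 probe sets of 7 osteoblast genes in the control clone (blue) and the hPHD4 clone (orange), 1 array each, with the floor of each array as a dashed line. Sp7, Dlx5 and Alpl lie far to the right with both points close together, Ibsp is higher and Mgp lower in the hPHD4 clone, and the probe sets of Phex and Dmp1 stay left of both floors.

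Among the transcription factors, Sp7 and Dlx5 had values. The single probe set of Sp7, the zinc-finger factor required for osteoblast formation, read 11.57 with hPHD4 and 11.34 in the control (linear 3039 and 2588). Both readings were more than 5 log2 units above the floor of their array, by 5.23 and 5.25. The log2 difference of 0.23 was smaller than the SD of 0.28 between probe sets at that brightness. Dlx5 read 11.11 and 10.82, also on 1 probe set (linear 2213 and 1803). Its log2 difference of 0.30 was 1.06 times that SD. Sp7 stood above 70.2% and Dlx5 above 75.4% of measured genes when all differences were put in order. Dlx6, the neighbour and paralog of Dlx5 on chromosome 6, was under the floor on both arrays, at 6.12 with hPHD4 and 5.67 in the control.

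Of the enzymes that govern phosphate and pyrophosphate, only Alpl was measured. It read 11.86 with hPHD4 and 11.65 in the control (linear 3712 and 3218), a log2 difference of 0.21 on 1 probe set against an SD of 0.28. The 3 genes Sp7, Dlx5 and Alpl were thus all somewhat higher in the hPHD4 clone, each by about as much as, or less than, probe sets of one gene commonly disagree. Phex, a membrane endopeptidase whose loss causes X-linked hypophosphataemia, had 2 probe sets. One read 5.73 and 5.34 and the other 3.85 and 1.86 with hPHD4 and in the control, all under the floors, and no fold is given. Enpp1, the ectoenzyme that makes the pyrophosphate that alkaline phosphatase removes, had no value.

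The matrix genes held both of the differences that went past 1.5-fold. The first probe set of Ibsp read 8.69 with hPHD4 and 7.13 in the control (linear 414.2 and 140.2). The second read 7.39 and 6.77 (linear 167.4 and 109.4). Both were higher in the hPHD4 clone, by 1.56 and 0.61 on the log2 scale, so they agreed in direction and disagreed in size by 0.95. Their mean of 1.09 had an SD of 0.67 between the 2 probe sets, and 8.27% of the 713 genes of that brightness with several measured probe sets had an SD as large. Ibsp ranked 105 from the top among the 7452 measured genes. Its control signals were only 1.05 and 0.69 log2 units above the floor, and neither array's reading of the second probe set reached the 60th percentile of its array.

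The promoter windows of Ibsp and Alpl are shown because the former gene differed most upwards and the latter, the measured enzyme gene, differed little. Each runs from 250 bases before to 50 after an annotated RefSeq start in GRCm38.p6, 5′ to 3′ on the gene's strand. Ibsp is at chr5:104299037-104299336, plus strand. Alpl is at chr4:137796335-137796634, minus strand, the first of its 2 windows. Capitals mark an inverted CCAAT box and an inverted TATA box (TTTATA) in Ibsp, and GC boxes (GGGCGG) in Alpl.
Ibsp: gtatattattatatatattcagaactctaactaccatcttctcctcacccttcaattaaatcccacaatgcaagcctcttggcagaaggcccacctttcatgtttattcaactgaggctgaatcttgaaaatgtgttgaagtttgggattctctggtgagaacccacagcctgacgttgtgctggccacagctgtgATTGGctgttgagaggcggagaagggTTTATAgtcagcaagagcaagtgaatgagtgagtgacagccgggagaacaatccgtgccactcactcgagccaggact
Alpl: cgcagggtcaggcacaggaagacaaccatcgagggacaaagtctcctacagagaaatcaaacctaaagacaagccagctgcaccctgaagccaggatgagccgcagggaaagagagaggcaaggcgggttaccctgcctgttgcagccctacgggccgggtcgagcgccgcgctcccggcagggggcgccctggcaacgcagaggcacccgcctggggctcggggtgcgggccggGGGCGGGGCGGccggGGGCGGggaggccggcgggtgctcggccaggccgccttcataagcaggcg
The Ibsp window had 46.3% G and C, with the CCAAT match starting 54 bases and the TTTATA match 28 bases before the start. The Alpl window had 70.0% G and C and 3 GC box matches, of which the first pair share 1 base. Over all 32851 windows, searched on both strands, CCAAT was held by 37.4%, TTTATA by 13.6% and GGGCGG by 35.7%. The RUNX site AACCACA, held by 5.27% of all windows, was in neither of the printed windows. Among the 10 windows of the 7 listed genes in the table it was in 3, with 3 matches in that of Runx2 itself and 1 each in 1 window of Spp1 and 1 of Dmp1. These matches of letters are descriptions of the windows and not of binding. Sp7, Dlx5 and Mgp have no entry in that table.

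Ibsp belongs to a row of related acidic phosphoprotein genes on chromosome 5, in the order Dspp, Dmp1, Ibsp, Mepe and Spp1. Dmp1, which marks late osteoblasts and osteocytes, read 5.88 with hPHD4 and 3.31 in the control (linear 59.0 and 9.88), under both floors. Dspp, best known from dentin, read 4.27 and 3.29, and Mepe, a phosphoglycoprotein of osteocytes, 4.57 and 3.59, likewise under both. Every one of these readings was higher in the hPHD4 clone. Dim probe sets as a whole leaned the same way: 63.2% of the 7004 probe sets under the floor on both arrays were higher in the hPHD4 clone, with a median log2 difference of 0.37 and an SD of 1.51. In this row only Ibsp was therefore measured, and Spp1, which encodes osteopontin, had no probe set of its own.

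Mgp, a vitamin K-dependent protein that binds calcium through its gamma-carboxylated residues and restrains mineralization of cartilage and vessels, differed in the opposite direction. Its single probe set read 7.52 with hPHD4 and 9.78 in the control (linear 182.9 and 876.2). The log2 difference of −2.26 was 6.16 times the probe set SD of 0.37 in size, and it ranked 6 from the bottom of all measured genes. The hPHD4 reading was 1.17 log2 units above the floor and the control reading 3.69. Vkorc1 and Ggcx, which supply the vitamin K cycle and the carboxylase for such proteins, did not share that size of difference. Vkorc1 read 11.05 and 11.21, a log2 difference of −0.16, and Ggcx was above the floor on the hPHD4 array alone, at 6.45 and 5.87.

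**Figure D2:**
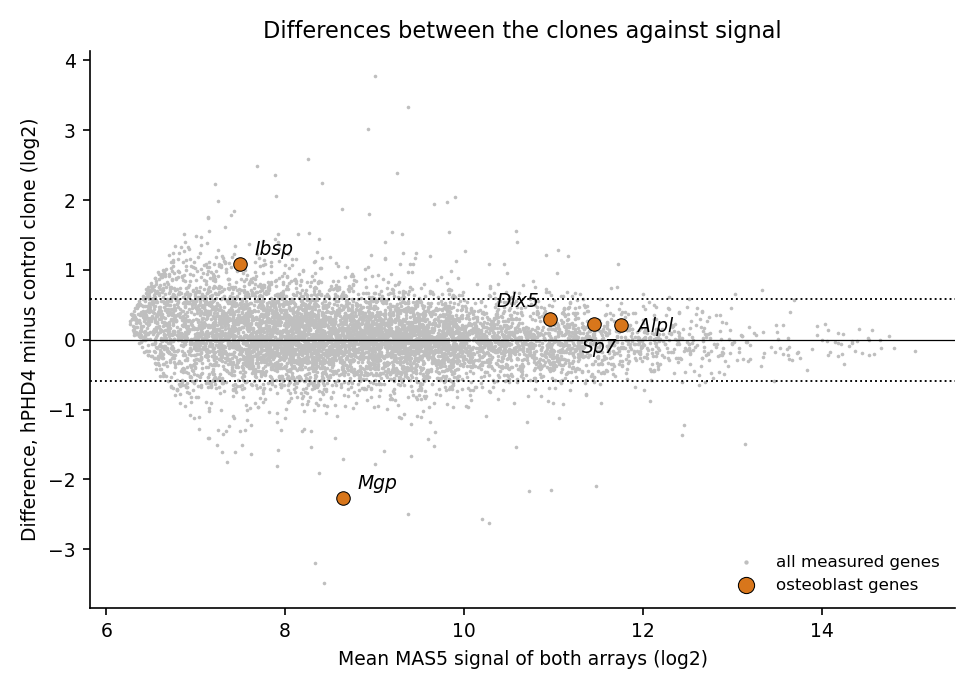
Difference between the clones (log2, hPHD4 minus control) against the mean signal of both arrays (log2) for all 7452 measured genes in grey and the 5 measured osteoblast genes in orange, with dotted lines at 1.5-fold. Sp7, Dlx5 and Alpl lie within the band of bright genes at 0.21 to 0.30, Ibsp at 1.09 on the upper edge of dim genes, and Mgp at −2.26 well under the band.

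Across the measured osteoblast genes, 4 were higher and 1 lower in the hPHD4 clone, where 53.6% of all measured genes were higher. The median log2 difference of the 5 was 0.23 and the mean −0.09, the latter pulled down by Mgp. At least 1.5-fold higher was 1 of the 5, against 8.94% of all measured genes, and at least 1.5-fold lower was 1 of the 5, against 5.22%. The same genes were past 2-fold, where the shares of all genes were 1.89% higher and 0.98% lower. With so few genes these counts describe Ibsp and Mgp and not the list. Of all genes past 1.5-fold, 63.1% were higher in the hPHD4 clone, a share that became 50.9% after quantile normalization and 49.7% after loess correction. The direction of all 5 genes was the same under both.

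Gene order gave a view of whether the surroundings of each gene moved with it. The 10 nearest measured genes around Mgp on chromosome 6, 5 on each side, ranged from −0.48 to 0.50 with a median log2 difference of −0.18. Wbp11 and Rerg, the nearest on either side, were at 0.06 and −0.22, against −2.26 for Mgp. Around Ibsp the 10 neighbours ranged from −0.75 to 0.40 with a median of −0.13, and its nearest measured neighbour Sparcl1 was at 0.40. Both genes therefore lay outside the range of their neighbours. Genes ranked 105 from the top and 6 from the bottom would lie outside most sets of 10 measured genes, so this does not set them apart. Around Sp7, Dlx5 and Alpl the neighbours ranged wider than the gene itself, with medians of −0.11, −0.21 and 0.17. Over whole chromosomes the medians were −0.19 on chromosome 5, which carries Ibsp, 0.00 on chromosome 6, −0.11 on chromosome 15, which carries Sp7, and −0.07 on chromosome 4, which carries Alpl.

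**Figure D3:**
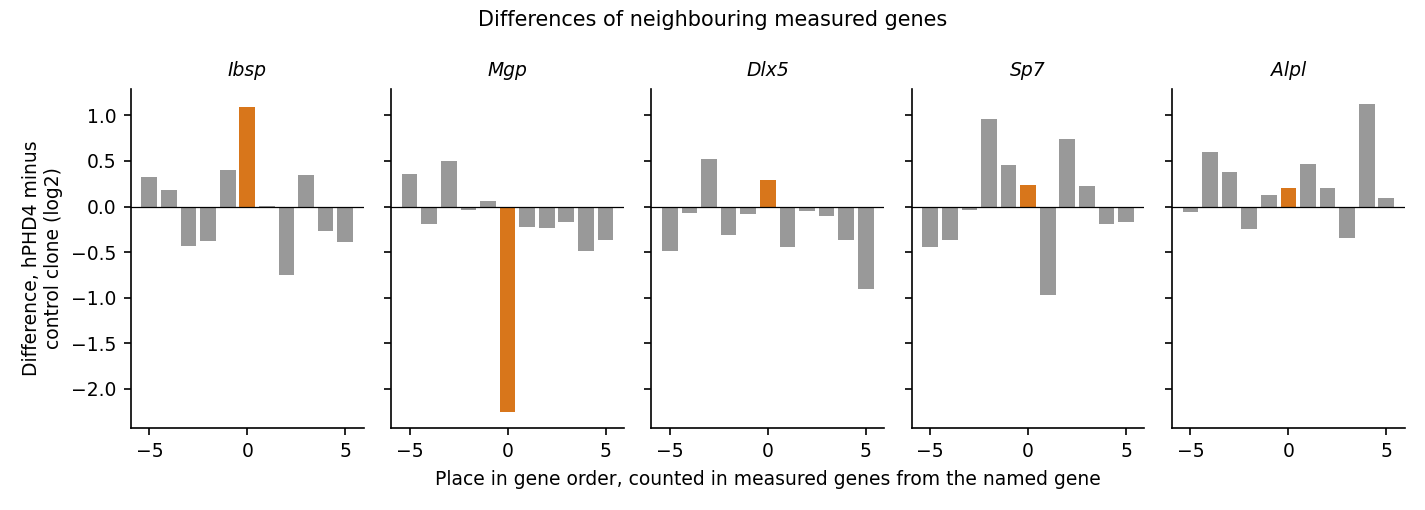
Difference between the clones (log2, hPHD4 minus control) for each measured osteoblast gene (orange) and the 5 nearest measured genes on either side (grey), by place in the gene order of the chromosome. The bars of Ibsp (1.09) and Mgp (−2.26) pass all of their neighbours, while those of Dlx5, Sp7 and Alpl lie within the range of theirs.

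Genes with the most similar pair of signals were found by distance on the log2 scale over the 2 arrays, which is all the pattern that 2 arrays can hold. The nearest to Ibsp were Plxna3 at a distance of 0.06, Ndrg2 at 0.10 and Pomc at 0.10, with log2 differences of 1.11, 0.98 and 0.96. The nearest to Mgp were much farther off, namely Aldh3a1 at 0.39, Mylk at 0.45 and Dcn at 0.62, with differences of −1.70, −1.91 and −1.78. Few genes thus shared the combination of signals seen for Mgp.

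Among the other bone matrix genes, 9 of 13 listed were measured. Of these, 8 were below 0, as were 46.4% of all measured genes, and the median log2 difference was −0.33 against 0.03 over all genes. At least 1.5-fold lower were 3, against 5.22% of all genes, and 0 were at least 1.5-fold higher, against 8.94%. The 3 were Ogn, Omd and Dcn, proteoglycans of the small leucine-rich family, at −3.48, −2.15 and −1.78. Type I collagen, the main protein of bone, differed less. The probe sets of Col1a2 were at −0.50 and −0.37, but those of Col1a1 disagreed in sign, at −0.61 and 0.39. Sparc, the collagen- and mineral-binding osteonectin gene, was at −0.20, and the tenascin gene Tnc was at 0.00. Postn, encoding periostin, cleared the floor only on the control array, at 5.40 with hPHD4 and 7.62 in the control. The osteocalcin genes Bglap and Bglap2 had no probe set of their own.

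Of 14 other transcription regulators of the osteoblast lineage, 9 were measured. Below 0 were 7 of them, against 46.4% of all measured genes, with a median log2 difference of −0.25. Most were dim, and differences of this size are close to or within the SD of 0.40 between probe sets of dim genes. Past 1.5-fold was 1 of the 9, against 8.94% of all genes higher and 5.22% lower. It was Hey1, a Notch and BMP target gene, at 0.60, and it no longer did after quantile normalization, median subtraction or loess correction. Cbfb, which encodes the DNA-binding partner of the RUNX proteins, was bright at 11.91 and 12.15 with a difference of −0.24. The probe sets of Atf4, a regulator of amino acid supply and late osteoblast genes, were at −0.37 and 0.15. Twist1 and Twist2, which restrain RUNX2, were at −0.58 and −0.57, and Sox9, the cartilage regulator, at −0.29. Between 0 and 3 of the list passed 1.5-fold in the lower direction, depending on the scaling.

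BMP signalling lies upstream of Dlx5 and Runx2, and 11 of its 17 listed genes were measured. All 11 were above 0, where 53.6% of all measured genes were, with a median log2 difference of 0.25. Measured probe sets differed in sign for Bmpr1a, from −0.18 to 0.34, and for Smad5, from −0.04 to 0.55. The differences of these genes and of Bmp4, Id3, Smad1 and Smad4 were smaller than the SD between probe sets at their brightness. At least 1.5-fold higher was 1 of the 11, a share near the 8.94% of all genes, and 0 were at least 1.5-fold lower. The gene past the threshold was Id2, an inhibitor of helix-loop-helix factors induced by BMPs, at 1.03 and with little distance between its probe sets. Id1 was at 0.56 and the inhibitory Smad genes Smad7 and Smad6 at 0.43 and 0.34. Bmp4 at 0.08 and Id3 at 0.17 were bright and differed little. All 11 stayed above 0 after quantile normalization, median subtraction and loess correction. A lower floor, at the 20th percentile, measured 12 genes, of which 1 was below 0.

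Phosphate, pyrophosphate and matrix modification genes were spread around 0. Of 18 symbols listed, 10 were measured, with a median log2 difference of 0.15. Above 0 were 6 and below it 4, where 53.6% and 46.4% of all measured genes were. At least 1.5-fold lower was 1 of the 10, against 5.22% of all genes, and 0 were at least 1.5-fold higher, against 8.94%. The lower gene, Ank, encodes a membrane protein that lets pyrophosphate and ATP out of the cell. It was 1.52-fold lower on 1 probe set, at 9.47 and 10.07. Smpd3, a sphingomyelinase needed for bone mineralization, was at 0.54 with probe sets at 0.83 and 0.26. Anxa5 and Anxa2, annexins of matrix vesicles, were at 0.47 and 0.29. The phosphate transporter genes Slc20a1 and Slc20a2 were at 0.12 and −0.20. The 5-member list of receptors for the RGD motif and for osteopontin had 4 measured genes, all below 0, with Itgb1, Itgb5 and Itgav between −0.05 and −0.01 and Cd44 at −0.48.

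In the list of osteoclast coupling and osteocyte genes, 4 of 9 were measured. Of these, 0 passed 1.5-fold, where 8.94% of all measured genes were that much higher and 5.22% that much lower. Under other scalings, floors or no filter, the count was 0 or 1 in each direction. Pth1r, the parathyroid hormone receptor of osteoblasts, read 10.68 and 10.39, a log2 difference of 0.29 and close to those of Sp7 and Dlx5. Csf1, a growth factor for osteoclast precursors, was at −0.41 with 4 probe sets from −0.85 to −0.06. The other measured genes went farther from 0, Dkk1 at 0.54 on 1 probe set and Mmp14 at −0.48 with probe sets at −0.72 and −0.24. Mmp13, a collagenase gene activated by RUNX2, lay under the floor in the hPHD4 clone and was bright in the control clone, at least 9.07-fold lower in the former. Pdpn, an early osteocyte gene, cleared the floor only on the hPHD4 array, at 6.80 and 4.69. Tnfrsf11b cleared the floor only on the control array, with brightest readings of 4.77 with hPHD4 and 6.45 in the control. Sost, encoding sclerostin, and Tnfsf11, encoding RANKL, were under the floor on both arrays.

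**Figure D4:**
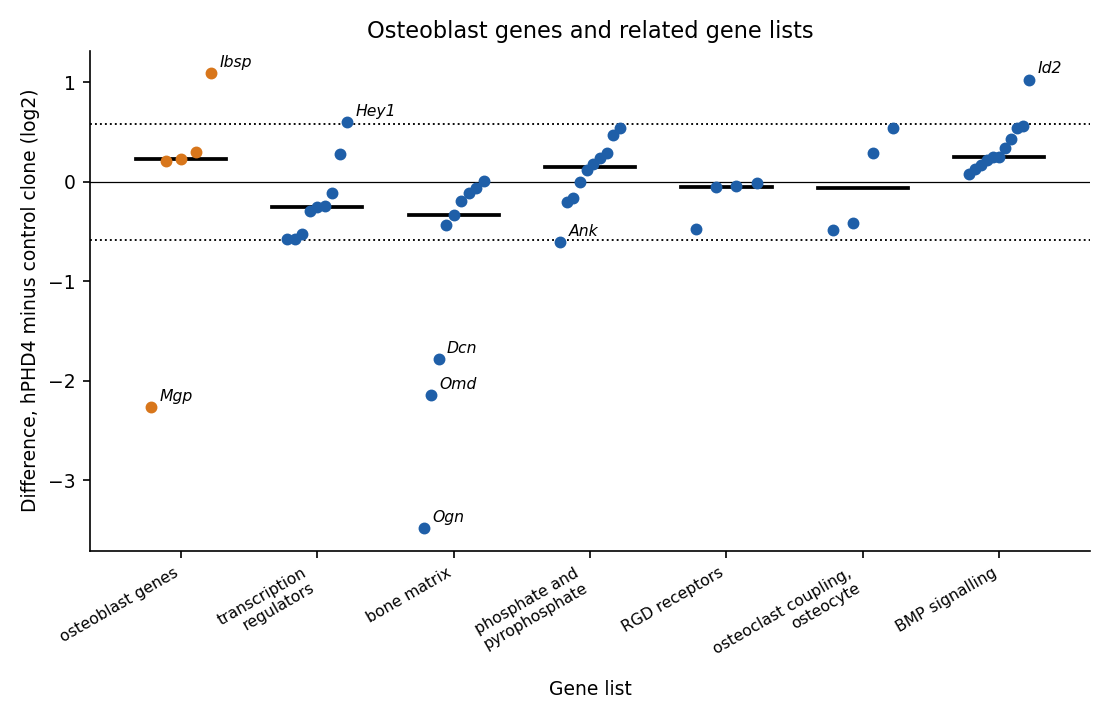
Difference between the clones (log2, hPHD4 minus control) for the measured osteoblast genes (orange) and the measured members of 6 related lists (blue), with each list's median as a black bar and dotted lines at 1.5-fold. The medians run from −0.33 for bone matrix to 0.25 for BMP signalling, and the named points are those past 1.5-fold.

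The osteoblast markers Sp7, Alpl and Col1a1 were each more than 4 log2 units above the floor in both clones. Ibsp was dimmer, at 8.04 with hPHD4 and 6.95 in the control. Bright too were the chondrocyte marker Col2a1, at 10.79 and 10.21, and the muscle marker Acta2, at 12.39 and 13.89. Of the markers of other cell types, 0 of 5 epithelial genes and 0 of the 4 adipocyte genes with a probe set were measured in both clones, 1 of 5 endothelial, 3 of 5 leukocyte, 3 of 5 chondrocyte and 2 of 5 muscle genes. Of the leukocyte genes, Adgre1 at 6.41 and 6.41 and Cd68 at 6.66 and 6.17 were each close to a floor. Csf1r read 7.89 with hPHD4 and 7.55 in the control, and Ptprc and Itgam were under both floors. The adipocyte regulator gene Pparg cleared the floor only on the control array, at 1.74 with hPHD4 and 6.85 in the control. The keratin gene Krt8 cleared it only on the hPHD4 array, at 7.44 and 5.89 on its brightest probe set. In the muscle list Acta2 was lower along with Mgp, at −1.50, while the other measured gene, Des, was at 0.42. Cnn1 of the same list cleared the floor only on the control array, at 4.46 with hPHD4 and 7.37 in the control. The sum of the linear signals of the list's genes, each taken at its brightest probe set, was 5558 with hPHD4 and 15537 in the control, nearly all of it from Acta2, the smooth muscle actin gene of many mesenchymal cells, while Myod1 and Tagln were under the floor on both arrays. In the chondrocyte list Col9a1 and Col2a1 were higher along with Ibsp, at 1.16 and 0.57, while Sox9 was at −0.29. Its summed signals were 2535 and 1628, and the aggrecan gene Acan was under the floor on both arrays. The part of these genes in the values of Mgp and Ibsp was not tested. The transgene itself was not checked, since it is human and the array carries mouse probes.

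**Figure D5:**
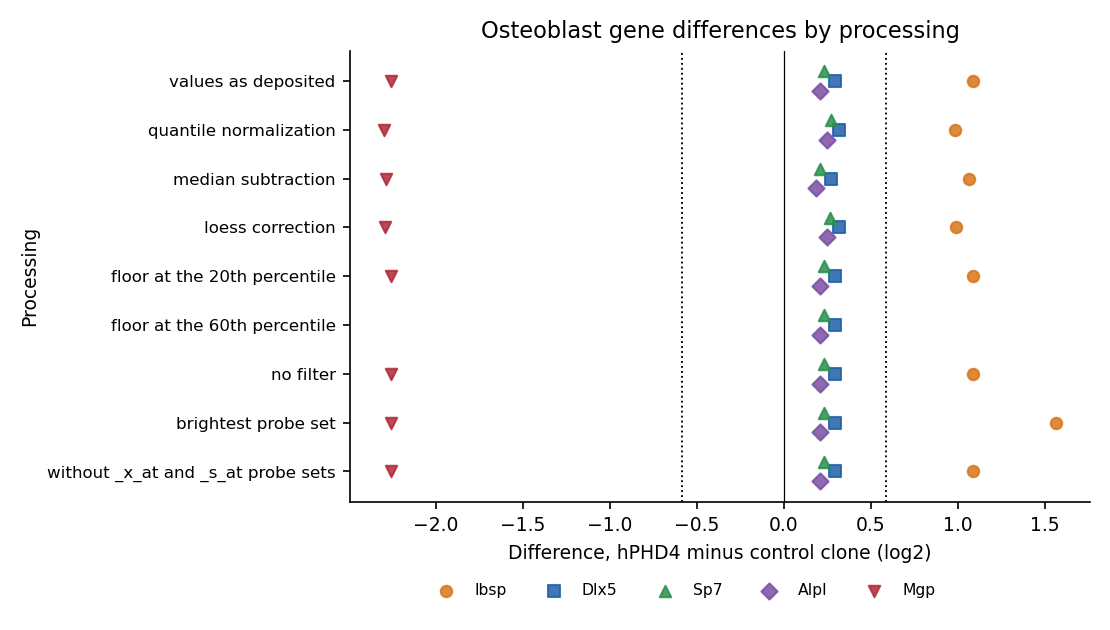
Difference between the clones (log2, hPHD4 minus control) of the 5 measured osteoblast genes with the values as deposited and under 8 other ways of processing, with dotted lines at 1.5-fold; points of Sp7 and Alpl are shifted vertically for legibility. Sp7, Dlx5 and Alpl stay between 0.18 and 0.32, Mgp between −2.30 and −2.26, and Ibsp between 0.98 and 1.56, while Ibsp and Mgp have no point with the floor at the 60th percentile.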

How the data were processed

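Each deposited value is a log2 signal of 1 probe set, which per the submitters' processing notes the authors computed with MAS5, with no version or settings stated there. Log base and scaling were read from the values: as powers of 2, both arrays had a mean of 500.2 after 2% was trimmed at each end, and no further scaling was applied. Each array held 22690 probe sets, 64 of them controls. The platform annotation gave 1 symbol to 20380, several to 691 and none to 1555; only the first kind was used. The value of a gene is the mean log2 difference, hPHD4 clone minus control clone, over its probe sets above the 40th percentile of both arrays. For a gene under the floor on one array and past the 75th percentile on the other, only a bound is given: its bright signal divided by the floor or by its dim signal, whichever is higher. Genes under the floor on both arrays have no fold. MAS5 detection calls were not used here.

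The genes and lists were chosen with earlier results of these data known, and 1 array per clone allows no test. The text names every listed osteoblast gene, members of related lists past 1.5-fold or given as a bound, up to 4 other bright ones per list, and the 3 nearest genes in signal; the remaining names (among them Twist1, Twist2, Sox9, Postn, Pdpn, markers of other cell types and dim genes) were added after their values were seen. Names and gene order came from a RefSeq table of GRCm38.p6, and the promoter windows from RefSeq on the same build. Gene values were computed with Python 3.11.15, pandas 2.3.3 and numpy 2.4.6, and the loess (span 0.3) with statsmodels 0.14.6. The steps were tested on simulated data. Other scalings, floors, filters, probe set choices and folds were tried.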

Additional observations from a re-analysis of the deposited data

How the results depend on the processing

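The direction of Sp7, Dlx5 and Alpl was the same under all 8 alternatives to scaling, floor, filter and probe set. Their log2 differences ran from 0.18 to 0.32. Mgp lay between −2.30 and −2.26 and Ibsp between 0.98 and 1.56 under the 7 that measured them. The highest value of Ibsp came from its brighter probe set alone. Apart from Ibsp, each of these genes had 1 probe set, so only quantile normalization, median subtraction and loess correction could alter its value. The other settings could only keep or drop it. With the floor at the 60th percentile only 3 of the osteoblast genes were measured, with 0 past 1.5-fold in either direction, because Ibsp was no longer above both floors and Mgp became a bound, at least 3.74-fold lower with hPHD4. With the floor at the 20th percentile Phex was measured, at 0.39. Counts over all genes depended on the floor. With it at the 20th percentile, 1579 genes were at least 1.5-fold higher and 638 lower, and 605 and 188 passed 2-fold. At the 60th percentile the counts were 251 and 244 at 1.5-fold and 45 and 34 at 2-fold. The values as deposited gave 666 and 389 at 1.5-fold, and raising the threshold to 2-fold left 141 and 73. Among the related lists, the median of osteoclast coupling and osteocyte genes had no fixed sign, from −0.24 to 0.15. No paired analysis was possible because each clone had 1 array. Precision is limited by having so few arrays, and for dim genes by the floor.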
